A study of Mus musculus with 6 samples.

Results

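The genes described here are 9 regulators of T helper and regulatory T (Treg) cells: Foxp3, Ikzf2, Il2ra, Ctla4, Icos, Pdcd1, Tbx21, Gata3 and Maf. They were chosen by name, and every probe whose accession mapped to one of them in RefSeq was kept. A probe was found for 8 of the 9, with 1 probe each, out of 12254 genes given a symbol on the array. No probe was named Maf here, so Maf has no value. All 8 probes passed the filter on dim spots, and none was saturated.

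CD4 T cells take on helper or regulatory programmes under the control of a few transcription factors. Tbx21 (T-bet) directs the T helper 1 (Th1) programme, Gata3 the T helper 2 (Th2) programme, and Foxp3 the Treg programme, in which Ikzf2 (Helios) is often co-expressed. Treg cells carry the high-affinity interleukin 2 receptor chain encoded by Il2ra and the inhibitory receptor encoded by Ctla4. Icos and Pdcd1 (PD-1) encode a costimulatory and an inhibitory receptor that are high on follicular helper T cells, which help B cells in the follicles of lymph nodes.

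Mesenteric lymph nodes of adult mice were compared between 2 knockout genotypes on 6 two-colour Agilent arrays. The labels call the strains B-TNF KO (3 arrays, B_TNF_KO) and TB-TNF KO double (3 arrays, TB_TNF_KO), and the series title refers to TNF derived from B cells and from T cells in naive nodes. TNF is an inflammatory cytokine that also shapes lymphoid tissue. Both groups thus carry a TNF knockout, no wild-type node was analysed here, and the labels used here name neither the deleter strain nor its promoter. For each array the nodes of 3 mice were combined and their RNA labelled with Cy3. A Cy5-labelled RNA pool of 11 mouse cell lines served as the common reference. That reference pool includes a T-lymphocyte line, so it can itself contain transcripts of these genes. The labels give female for TB_TNF_KO replicate 2 and male for the other pools. The comparison asks which transcripts differ when T cells as well as B cells lack TNF.

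The 17 measured T cell markers and the 11 measured B cell markers were well above background on every array. So were 95.9% to 99.6% of probes in the lymph node channel, so this flag does not identify the tissue. Across probes, the SD between TB_TNF_KO arrays 1 and 2 was smaller in the lymph node channel than in the reference channel, where the RNA was the same (ratio 0.952). In the 14 other pairs of arrays this ratio was 1.06 to 1.59. Arrays 1 and 2 thus differed by less than the technical noise and were counted as 1 sample, which leaves 3 against 2. Y-linked genes were low on both arrays (median log2 ratio -2.06 and -1.95), although array 1 is labelled male. The other pools, all labelled male, differed too. Their medians were 0.05, 0.53 and 1.61 on B_TNF_KO replicates 1, 2 and 3 and 1.25 on TB_TNF_KO replicate 3. Exocrine pancreas markers were high on replicates 1 and 2 of both groups (list medians 2.98 to 4.75) and near 0 on replicate 3 of both. The bright probe of Tnf, the targeted gene, differed by -1.09 (SE 0.10, limma adjusted p = 0.055). A second, dimmer Tnf probe differed by -0.26 (SE 0.06, limma adjusted p = 0.099). The position of these probes relative to the deletion is not known here, and their values are no check of the labels. Feature Extraction was run on 1 day for each group, so that batch and genotype cannot be told apart.

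The probes are 60-base oligonucleotides. Their first 30 bases are given 5′ to 3′ to show what each value rests on, with runs of at least 4 G in capitals.
Foxp3: cagttcctttgtgtccgacaagatctggta
Ikzf2: tacctgaataacatagtgcaggtcaaacaa
Il2ra: tccaagagaatctatcatttcgtggaagga
Ctla4: tggcagtgtttgtatgaacctgacagaaca
Icos: ttatcgaactcatgcattagaaccaacatg
Pdcd1: aaggaaaGGGGGatataaccttgacgcaaa
Tbx21: gaGGGGGGaggctatttattgtagagagtg
Gata3: ttaaggaatataGGGGGattaaagtatgga
A run of at least 4 G occurred in the probes of Pdcd1, Tbx21 and Gata3, and in 11.7% of the 41006 probes on the array. The GC content of the 8 probes was 36.7% to 45.0%, around the array's median of 43.3%.

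None of the 8 probes passed the adjusted threshold of 0.05 between the genotypes in limma with Benjamini-Hochberg adjustment over all probes. Only 0.0147% of 40791 tested probes did, 6 in number and all lower in TB_TNF_KO. At an unadjusted p under 0.05 there were 5 of the 8 probes: Ikzf2, Pdcd1 and Gata3 higher in TB_TNF_KO, and Icos and Tbx21 lower. Over all probes 16.2% did, 5.02% higher and 11.2% lower. The arrays of the 2 groups did not overlap for 6 of the 8 genes, 3 in each direction, while Il2ra and Ctla4 overlapped. Over all kept probes 27.5% did not overlap, 16.9% with TB_TNF_KO lower and 10.6% with it higher. The genes were proposed with earlier results of these data known, so these shares are a description.

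**Figure D1:**
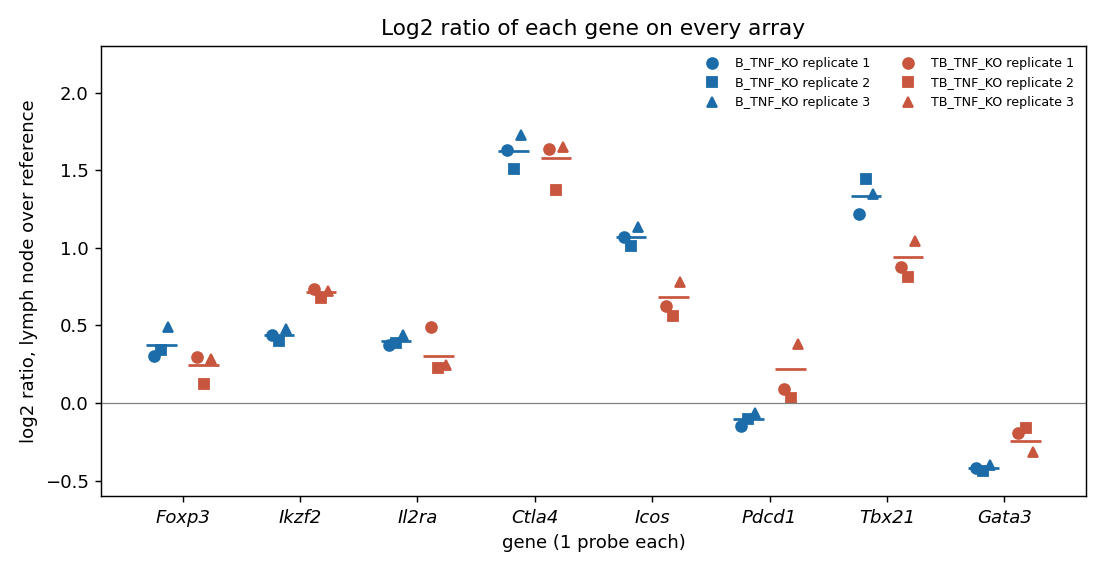
Log2 ratio of lymph node over reference RNA for each gene (1 probe each) on the 6 arrays, with horizontal bars for the group means (TB_TNF_KO replicates 1 and 2 averaged first). Ikzf2, Pdcd1 and Gata3 lie higher and Foxp3, Icos and Tbx21 lower on every TB_TNF_KO array, while Il2ra and Ctla4 overlap.

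Among the transcription factors the differences had both signs. Ikzf2, the Helios gene, had log2 ratios of 0.44, 0.40 and 0.47 on B_TNF_KO replicates 1, 2 and 3, and of 0.74, 0.68 and 0.72 on TB_TNF_KO replicates 1, 2 and 3. All TB_TNF_KO arrays lay above all B_TNF_KO arrays, and each group was tight. The means were 0.44 ± 0.04 (SD, n = 3) and 0.72 ± 0.01 (SD, n = 2), a difference of 0.28 (SE 0.04, 1.21-fold, limma adjusted p = 0.063). The lymph node channel alone showed the same order, with log2 signals of 6.81, 6.84 and 6.70 in B_TNF_KO and 7.15, 6.96 and 6.96 in TB_TNF_KO. Its difference was 0.22 (SE 0.07, adjusted p = 0.14), and the reference channel differed by -0.03 (SE 0.09). The Ikzf2 probe was dim, with background-subtracted intensities of 65.8 to 85.5 against an array median of 143 to 203. The size of its difference depended on the background step. With none subtracted it was 0.08 (SE 0.01, limma adjusted p = 0.12), so the SE was smaller as well.

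Foxp3, the defining factor of Treg cells, had log2 ratios of 0.30, 0.34 and 0.49 in B_TNF_KO and 0.30, 0.12 and 0.28 in TB_TNF_KO. The groups just failed to overlap, since the lowest B_TNF_KO array (0.303) and the highest TB_TNF_KO array (0.2996) were almost equal. The difference was -0.13 (SE 0.07, 95% interval -0.30 to 0.04, limma adjusted p = 0.42). In the lymph node channel alone the values were 6.93, 6.97 and 6.99 against 6.88, 6.70 and 6.78, a difference of -0.18 (SE 0.06, adjusted p = 0.14). This probe was dim as well, at intensities of 54.2 to 99.0. The difference was -0.04 (SE 0.02) with no background subtracted and -0.02 (SE 0.07) with median centring in place of loess. Foxp3 and Ikzf2, which mark overlapping Treg populations, thus had differences of opposite sign on dim probes, and neither passed the threshold.

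Tbx21, the Th1 factor that natural killer (NK) cells also express, had log2 ratios of 1.22, 1.45 and 1.35 in B_TNF_KO and 0.87, 0.81 and 1.04 in TB_TNF_KO. All TB_TNF_KO values were lower than the lowest B_TNF_KO value. The difference was -0.39 (SE 0.09, 1.31-fold, limma adjusted p = 0.11). The lymph node channel alone, quantile normalised, did not show it. There the Tbx21 log2 signals were 9.86, 10.01 and 9.81 in B_TNF_KO and 9.88, 9.94 and 9.89 in TB_TNF_KO. They overlapped, with a difference of 0.01 (SE 0.08). Before that normalisation the background-subtracted intensities were 989, 1001 and 1123 in B_TNF_KO and 744, 733 and 917 in TB_TNF_KO. The median probe was also dimmer on average in TB_TNF_KO (143 to 166 against 158 to 203). The reference channel was higher on every TB_TNF_KO array (9.95, 10.02 and 9.80 against 9.67, 9.61 and 9.52), a difference of 0.29 (SE 0.07, adjusted p = 0.13). The reference was the same pool on all arrays. Its log2 signals here were quantile normalised, and over all kept probes their median difference was -0.02. Before that normalisation the median background-subtracted reference intensity was 279 to 282 on B_TNF_KO and 315 to 362 on TB_TNF_KO arrays.

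Gata3, the Th2 factor that all T cells need to develop, had log2 ratios of -0.42, -0.44 and -0.40 in B_TNF_KO and -0.19, -0.16 and -0.31 in TB_TNF_KO. The groups did not overlap, and the difference was 0.17 (SE 0.05, limma adjusted p = 0.20). In the lymph node channel alone the values were 9.41, 9.34 and 9.38 against 9.59, 9.48 and 9.35. They overlapped, because TB_TNF_KO replicate 3 lay within the B_TNF_KO range, and the difference was 0.07 (SE 0.08). The reference channel was lower on every TB_TNF_KO array, by -0.11 (SE 0.04) on average. In the loess ratio Gata3 was below the cell line pool on all 6 arrays.

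The costimulatory receptor gene Icos had log2 ratios of 1.07, 1.01 and 1.13 in B_TNF_KO and 0.62, 0.56 and 0.78 in TB_TNF_KO. All TB_TNF_KO arrays were lower, with means of 1.07 ± 0.06 (SD, n = 3) and 0.68 ± 0.13 (SD, n = 2). The difference was -0.39 (SE 0.07, 1.31-fold, limma adjusted p = 0.078). As with Tbx21, the lymph node channel alone, quantile normalised, did not show it. Its log2 signals were 9.60, 9.42 and 9.71 in B_TNF_KO and 9.52, 9.48 and 9.64 in TB_TNF_KO, a difference of -0.01 (SE 0.10). The reference channel for Icos was 9.53, 9.39 and 9.64 against 9.83, 9.81 and 9.81, higher on every TB_TNF_KO array, with a difference of 0.29 (SE 0.08). A reference difference of at least the size found for Icos and Tbx21 occurred in 4.95% of kept probes. The part of the reference channel in these ratios is thus visible in the values, while its origin was not tested.

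**Figure D2:**
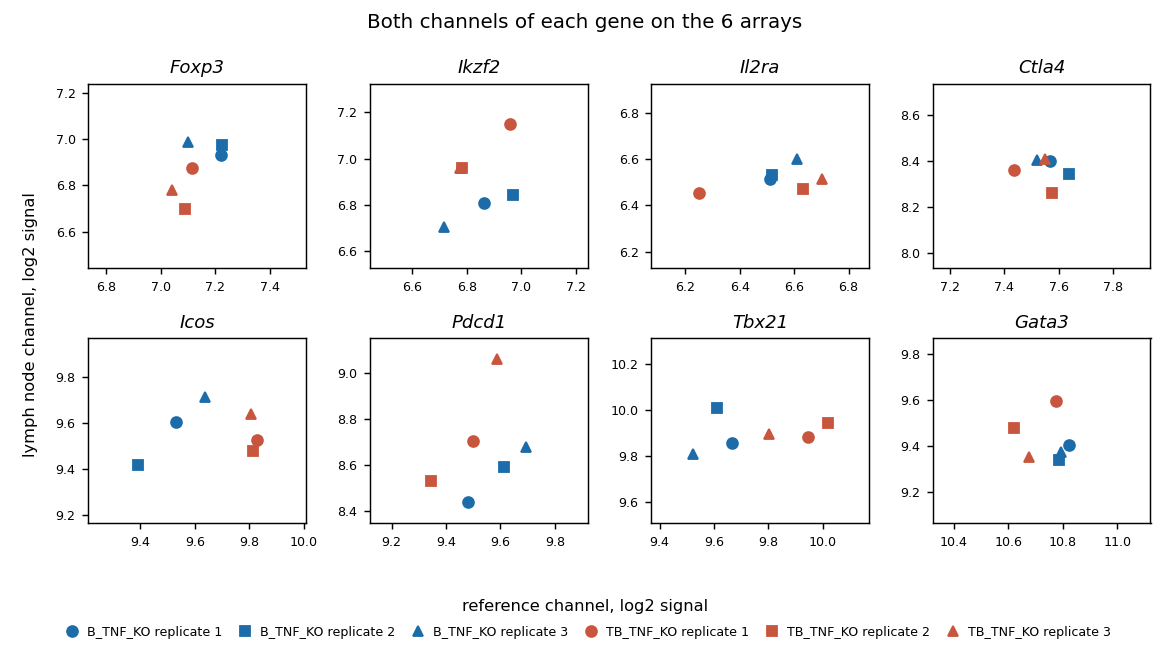
Log2 signal of the lymph node channel (vertical) against the reference channel (horizontal) for each gene on the 6 arrays, normexp corrected and quantile normalised. For Icos and Tbx21 the genotypes separate along the reference axis, and for Ikzf2 and Foxp3 along the lymph node axis.

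Pdcd1, which encodes the inhibitory receptor PD-1, had log2 ratios of -0.15, -0.10 and -0.07 in B_TNF_KO and 0.09, 0.03 and 0.38 in TB_TNF_KO. Every TB_TNF_KO array was higher, and TB_TNF_KO replicate 3 was the highest by far. The difference was 0.33 (SE 0.10, 95% interval 0.09 to 0.56, limma adjusted p = 0.18). Without TB_TNF_KO replicate 3 it was 0.17. The lymph node channel alone gave log2 signals of 8.44, 8.59 and 8.68 against 8.70, 8.53 and 9.06, which overlapped, with a difference of 0.27 (SE 0.14). The reference channel differed by -0.09 (SE 0.09).

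Ctla4 had log2 ratios of 1.63, 1.51 and 1.73 in B_TNF_KO and 1.64, 1.37 and 1.65 in TB_TNF_KO. The arrays overlapped, and TB_TNF_KO replicate 2 was the lowest. The difference was -0.04 (SE 0.08) with a 95% interval of -0.24 to 0.15, and neither channel alone differed by more than 0.05 in size. Il2ra, the CD25 gene, had log2 ratios of 0.37, 0.38 and 0.44 in B_TNF_KO and 0.49, 0.22 and 0.25 in TB_TNF_KO, which also overlapped. Its difference was -0.10 (SE 0.05) with a 95% interval of -0.23 to 0.03. On the Il2ra, Ctla4 and Foxp3 probes, TB_TNF_KO arrays 1 and 2, counted as 1 sample, differed by more than the genotypes did. The Il2ra probe was the dimmest of the 8, at intensities of 38.7 to 62.5 in the lymph node channel.

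**Figure D3:**
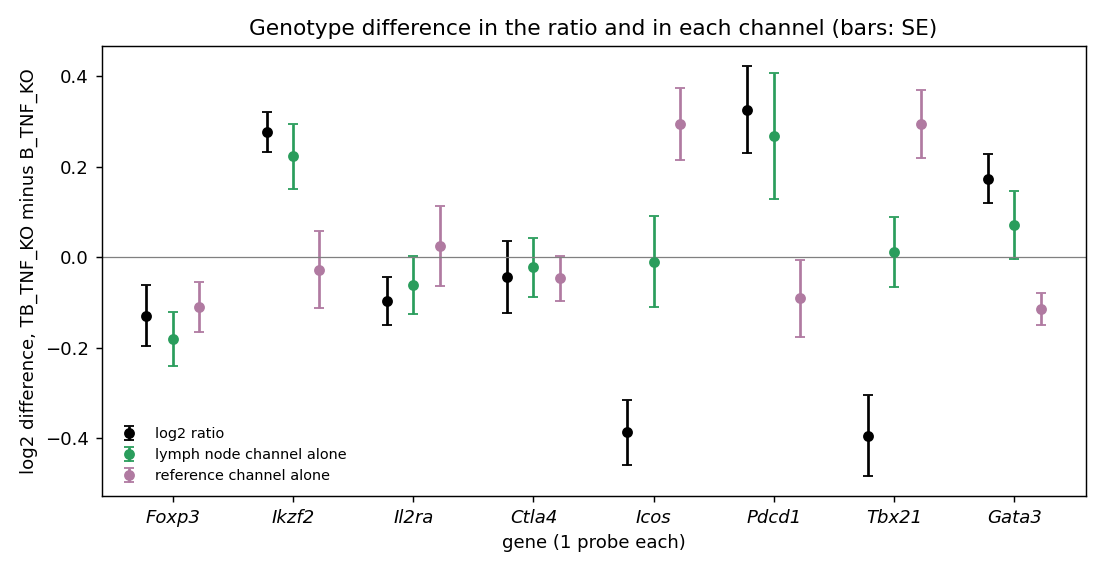
Difference TB_TNF_KO minus B_TNF_KO (log2, with SE bars, 3 against 2 samples) of each gene in the ratio, in the lymph node channel alone and in the reference channel alone. Icos and Tbx21 differ by -0.39 in the ratio and by -0.01 and 0.01 in the lymph node channel, while Ikzf2 and Pdcd1 are higher in both.

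With all 6 arrays counted separately, 3 of the 8 probes passed the adjusted threshold in limma: Ikzf2 (0.28, adjusted p = 0.014), Icos (-0.42, adjusted p = 0.017) and Tbx21 (-0.43, adjusted p = 0.027). Over all probes 6.04% passed in that fit, 1.46% higher and 4.58% lower. It takes TB_TNF_KO arrays 1 and 2 as separate samples, so its p-values are too small if both held 1 RNA. Pairing the arrays by the replicate number in their titles as a block kept the same 3 calls, with adjusted p = 0.020 for Ikzf2, 0.013 for Icos and 0.030 for Tbx21, where 8.02% of all probes passed. That block had 3 levels and was fitted on 6 arrays. A block of 2 levels (number 3 against 1 and 2) with TB_TNF_KO arrays 1 and 2 averaged, added after the data were seen, changes both choices. In it none passed: the adjusted p was 0.066 for Ikzf2, 0.054 for Icos and 0.096 for Tbx21. In the lymph node channel alone none of the 8 passed either, where 1.37% of all probes did. There the arrays did not overlap for 2 of the 8 genes, Foxp3 and Ikzf2, against 32.5% of all kept probes. In the reference channel they did not overlap for 3, Icos, Tbx21 and Gata3, against 31% of all kept probes.

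These are values of whole nodes, in which fewer cells of a type and less RNA per cell cannot be told apart. The 17 measured T cell markers had list medians of 1.97, 2.13 and 2.25 in B_TNF_KO and 2.06, 1.81 and 2.10 in TB_TNF_KO, which overlapped. Their summed lymph node intensity ranged over 53864 to 77401 for the B_TNF_KO arrays and 40258 to 55440 for the TB_TNF_KO arrays, none of the markers being at background. No T cell marker passed the threshold, 14 of 17 had lower values in TB_TNF_KO, and the median difference was -0.09. Over all genes with a symbol, each by its brightest probe, 60.7% were lower and the median was -0.03. In the lymph node channel alone the T cell marker median was -0.03. The coreceptor gene Cd5 differed by -0.17 (a second, dimmer probe by 0.31), the kinase gene Lck by -0.22, Cd6 by -0.36 and the adaptor gene Lat by 0.11 (a second, dimmer probe by -0.20). In the lymph node channel alone Cd6 differed by 0.23 and Cd5 by 0.05.

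Set against the median of the T cell markers on the same array, Ikzf2 was higher in TB_TNF_KO by 0.38 and Pdcd1 by 0.42, and Icos and Tbx21 were lower by -0.29 and -0.30. For these 4 of the 8 genes the arrays did not overlap, against 9.71% of all kept probes on the same scale. Foxp3 differed by -0.03 on this scale, Il2ra by 0.0011 and Ctla4 by 0.06, all with overlapping arrays. Gata3 differed by 0.27, and its arrays overlapped, with TB_TNF_KO replicate 3 at -2.41 and B_TNF_KO replicate 1 at -2.39. This scale starts from the ratio, so it keeps the reference channel differences of Icos and Tbx21, 0.29 for each. In the lymph node channel alone Icos differed by -0.01 and Tbx21 by 0.01. The values on the marker scale were not tested.

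The other genes of the same programmes were taken from lists of textbook members, each gene by its brightest probe, and none of their measured members passed the threshold. The genes named from each list are mostly those with the smallest unadjusted p, so they do not stand for the list. In the Treg-associated list 16 of 23 genes had lower and 7 higher values, or 69.6% lower against 60.7% of all genes with a symbol. The median was -0.09, and 0.01 in the lymph node channel alone. Cbfb, a partner of the Runx factors that act with Foxp3, differed by -0.64 (SE 0.09, limma adjusted p = 0.055), and by -0.59 in the lymph node channel alone. Tnfrsf18 (GITR), a receptor high on Treg cells, differed by -0.28, the ectonucleotidase gene Entpd1 (CD39) by -0.23 and the interleukin 10 receptor gene Il10ra by -0.26. For Entpd1 and Il10ra the lymph node channel alone gave 0.09 and 0.03.

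In the Th1-associated list 10 of 13 genes had lower values in TB_TNF_KO, with a median of -0.10. The interferon gamma receptor gene Ifngr1 differed by -0.22, Cxcr3, a receptor that T-bet induces, by -0.21 and Stat4, which acts below interleukin 12, by -0.23. Only Cxcr3 of these turned higher in the lymph node channel alone, at 0.07. The 6 measured NK cell markers, which matter for Tbx21, had a median of -0.10 (0.01 in the lymph node channel alone), with 4 lower and 2 higher values. Their summed intensities, which follow the overall brightness of an array, were 10081 to 12451 in B_TNF_KO and 7574 to 9626 in TB_TNF_KO. These did not overlap. Nor did the sums of the Th1-associated list (12622 to 15507 against 8516 to 11081), the Th17-associated list or the ligands and partner receptors. Ncr1, the NKp46 gene, differed by -0.34, Klrd1 by -0.16, Klrk1 by -0.08 (its dimmer probe by -0.25) and Nkg7 by 0.06 (its dimmer probe by -0.02). Their part in the Tbx21 values was not tested.

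The Th2-associated list, with Gata3's partner genes, had a median of 0.01, with 5 of 9 genes higher and 4 lower. Ptgdr2 (CRTH2), a prostaglandin receptor of Th2 cells, differed by 0.15 and Il4 by 0.13, although a dimmer Il4 probe gave -0.22. The repressor gene Gfi1 differed by -0.14 and the chemokine receptor gene Ccr4 by -0.05. All 7 mast cell markers, another possible source of Th2-type transcripts, had lower values in the ratio, with a median of -0.06. Kit, the stem cell factor receptor gene, was at -0.18. In the lymph node channel alone the median was -0.02, with Cpa3 at 0.08, Ms4a2 at 0.04 and Cma1 at 0.03. The other mast cell markers were lower there. The summed intensity of the 7 markers was 1245 to 1626 for B_TNF_KO and 1118 to 1254 for TB_TNF_KO. Their part in the Gata3 values was not tested.

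In the Th17-associated list 8 of 11 genes had lower values, with a median of -0.11. Il23r, the interleukin 23 receptor gene, differed by -0.21, the chemokine receptor gene Ccr6 by -0.30 (0.04 in the lymph node channel alone), the aryl hydrocarbon receptor gene Ahr by -0.16 and the transcription factor gene Batf by -0.13. In the list of follicular helper genes 6 of 9 had lower values, with a median of -0.06, and of 0.03 in the lymph node channel alone. Bcl6, their defining factor, which germinal centre B cells also express, differed by -0.23 (its dimmer probe by -0.02), Slamf6 by -0.34, the CD40 ligand gene Cd40lg by -0.09 and Il21 by -0.08. Icos and Pdcd1, receptor genes of the same cells, lay on opposite sides of the list median, at -0.39 and 0.33.

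Ligands and partner receptors of the 8 genes had a median of -0.13, with 8 of 10 genes lower. Pdcd1lg2, which encodes the PD-1 ligand PD-L2, differed by -0.47 (SE 0.06, limma adjusted p = 0.055), but by -0.02 in the lymph node channel and 0.42 in the reference channel. Cd274, the gene of the other PD-1 ligand, differed by -0.18. The CTLA-4 ligand genes Cd80 and Cd86 differed by 0.17 (-0.13 in the lymph node channel alone) and -0.16, and their shared receptor gene Cd28 by -0.12. Icosl, encoding the ICOS ligand, differed by -0.09 (its dimmer probe by 0.18). Il2rb, the interleukin 2 receptor beta chain gene, differed by -0.14 (0.18 in the lymph node channel alone), and Il15, whose protein uses the same chain, by -0.37. No probe was named Il2rg here.

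**Figure D4:**
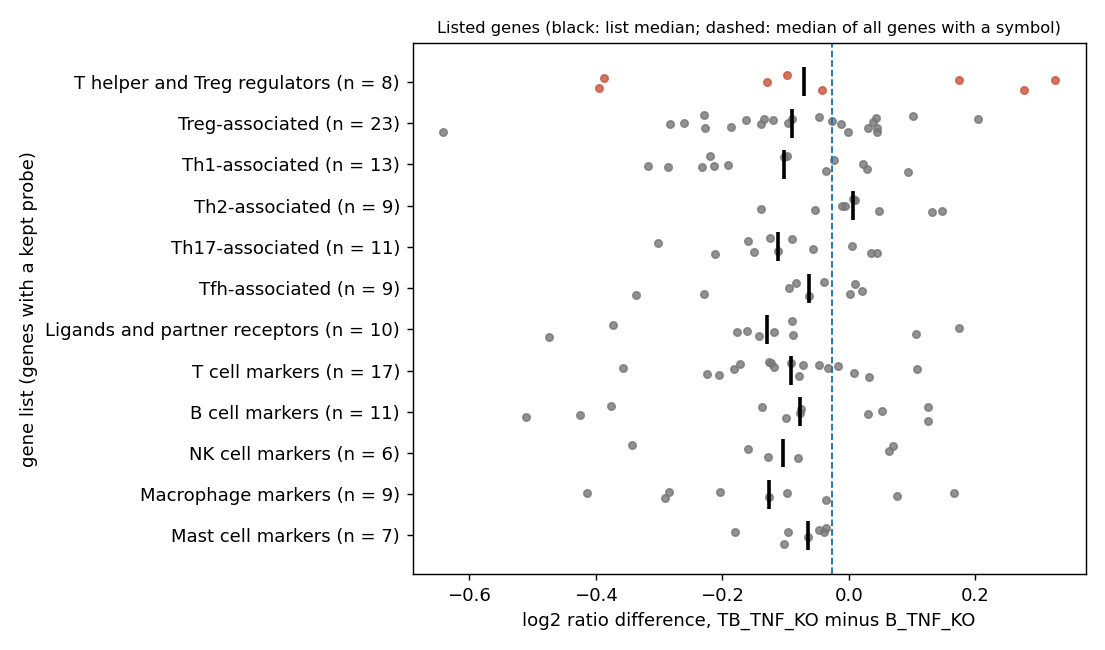
Difference TB_TNF_KO minus B_TNF_KO in the log2 ratio for each measured gene (brightest probe) of the gene lists, with black bars for list medians and a dashed line for the median of all genes with a symbol, each by its brightest probe (-0.03). The 8 regulators spread from -0.39 to 0.33, and 10 of the 11 other list medians shown lie below the dashed line, all but the Th2-associated one. In the lymph node channel alone the Treg, follicular helper, B cell and NK cell medians were above 0 (0.01, 0.03, 0.05 and 0.01). The Th2-associated median was above 0 there too (0.05).

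The 11 B cell markers had a median of -0.08 in the ratio and 0.05 in the lymph node channel alone, with 7 lower and 4 higher values. The highest were Ebf1 and Cd22, both at 0.12, and those of smallest p were Blk at -0.51 (a dimmer probe at -0.09), Cd79a at -0.42 (a dimmer probe at -0.31), Fcrl1 at -0.38 and Blnk at -0.14. Their summed intensities were 42181 to 55180 in B_TNF_KO and 27007 to 44181 in TB_TNF_KO. The 9 macrophage markers had a median of -0.13, with 7 lower and 2 higher values (Marco at 0.17 and C1qc at 0.08). Those of smallest p were Adgre1 (F4/80) at -0.41 (a dimmer probe at -0.08), Siglec1 at -0.28, Mertk at -0.29 and C1qa at -0.13. Their summed intensities did not overlap, at 132012 to 171060 in B_TNF_KO and 97157 to 102382 in TB_TNF_KO. Intensities follow the overall brightness of an array, and the median probe was also dimmer on average in TB_TNF_KO (143 to 166 against 158 to 203). The part of these cells in the values of the 8 regulators was not tested.

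Over 25 alternative settings Ikzf2 lay between 0.08 and 0.46, Pdcd1 between 0.17 and 0.49 and Gata3 between 0.07 and 0.25, so these 3 stayed higher in TB_TNF_KO. Foxp3 stayed lower, between -0.18 and -0.02. Icos lay between -0.48 and -0.01 and Tbx21 between -0.49 and 0.01, the last value of each being that of the lymph node channel alone. Il2ra and Ctla4 changed sign among the settings. With replicate 3 of both groups left out, which leaves arrays that all carried pancreas transcripts, Ikzf2 differed by 0.29, Icos by -0.45 and Tbx21 by -0.49. With TB_TNF_KO arrays 1 and 2 left out instead, which removes the arrays without Y-linked signal, they differed by 0.28, -0.29 and -0.30.

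**Figure D5:**
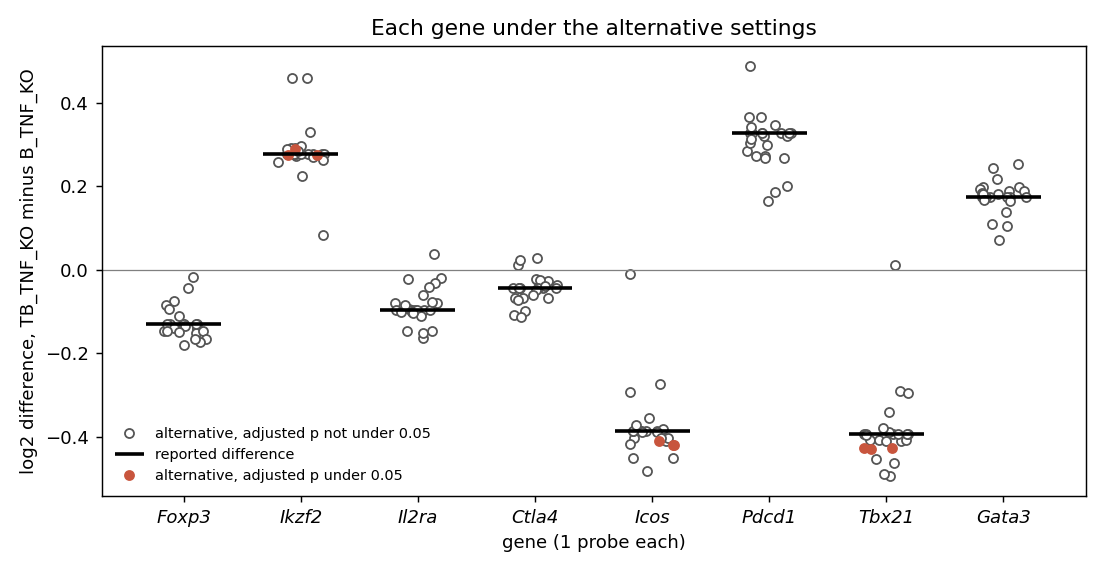
Difference TB_TNF_KO minus B_TNF_KO (log2) of each gene as reported (bars) and under the 25 alternative settings (points, filled where the limma adjusted p was under 0.05). The filled points belong to Ikzf2, Icos and Tbx21 in the 3 fits that count the 6 arrays separately; the points of Icos and Tbx21 near 0 are the lymph node channel alone.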

How the data were processed

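Each array measured 1 pool of mesenteric lymph nodes (Cy3) against a common reference (Cy5). Per the file headers, the authors extracted spot intensity and local background intensity with Agilent Feature Extraction A.7.5.1, and the deposited log10 ratio gives reference over sample. Values in the deposited series table are log10, as the authors submitted them, and their scaling is not given in the sources used here. Its group differences followed the ratio (r = 0.939 across probes, which are not independent) more than the sample channel (r = 0.661).

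Mean intensities were corrected with normexp (offset 50) and normalised by loess within arrays in limma 3.58.1 (R 4.3.3), with control spots at weight 0. Then 228 outlier spots were left out and ratios turned to log2 of sample over reference. Probes well above background on at least 3 arrays were kept (40792 of 41006). RefSeq accessions of GRCm38.p6 gave symbols to 15294 probes. Every probe was tested with lmFit and eBayes, with Benjamini-Hochberg adjustment over all probes. Single channels were quantile normalised. Precision is limited by how few arrays there are. The fit was tested on simulated data. Figures used matplotlib 3.10.9.

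Members, lists and tests were chosen with earlier results of these data known. Named are all members, up to 4 genes per list by unadjusted p, and set partner genes, some of which are not reported here. A planned search for genes most like Foxp3 is not reported, as only 5 samples are independent. Alternatives covered background, normalisation, channel, filters, probes, variance model, weights, saturation, GC content, replicate block and arrays left out. Deviations from the group means correlated between same-numbered arrays (0.13, 0.52 and 0.62 for replicates 1, 2 and 3, across probes). A block by number was therefore run, but only among the alternatives. The reported differences, SEs and p-values come from a fit without pairing. Arrays of different numbers gave -0.57 to 0.43, the highest, B_TNF_KO 2 with TB_TNF_KO 1, being above the 0.13 of replicate 1. The number comes from the sample titles only, which say nothing of shared animals or days, and pools are separate samples by label alone.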

Additional observations from a re-analysis of the deposited data

How the results depend on the processing

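Causes were not tested, except that some settings fit fewer samples. Against 0 probes higher, 6 lower and 0 of the 8 regulators past the threshold, the 6 arrays counted separately gave 597, 1868 and 3. The replicate block on 6 arrays gave 738, 2534 and 3, and with GC content removed as well (added after seeing the data) 696, 2093 and 3. A different block, of 2 levels (number 3 against 1 and 2) with TB_TNF_KO arrays 1 and 2 averaged (also added), gave 1, 5 and 0. The sample channel alone gave 250 higher and 309 lower, eBayes with trend and robust 148 and 409, and array weights 98 and 311. The lower count was 0 without background subtraction and with the authors' series table, 1 with Feature Extraction's processed signals and 2 with a gene's probes averaged. It was 0 with TB_TNF_KO arrays 1 and 2 both left out (3 against 1) or replicate 3 of both groups left out (2 against 1), where a lone sample is assumed to vary like the others. Leaving out single replicates gave 0 to 5 lower, with 0 without B_TNF_KO replicate 2 or TB_TNF_KO replicate 3, 1 without B_TNF_KO replicate 1 and 3 without B_TNF_KO replicate 3 or TB_TNF_KO replicate 2, and 0 of the 8 regulators throughout. Signs turned for Il2ra with median centring (0.037), for Tbx21 in the sample channel alone (0.011) and for Ctla4 with TB_TNF_KO arrays 1 and 2 both left out (0.028). Over single replicates left out Ctla4 ran from -0.11 to 0.023. It turned to 0.010 without B_TNF_KO replicate 3 and to 0.023 without TB_TNF_KO replicate 2. The reference channel had 0 probes past the adjusted threshold in limma in all 16 alternatives run for it, and 9469 at an unadjusted p under 0.05. Dim signal over background limits Foxp3, Ikzf2 and Il2ra.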
